A study of Arabidopsis thaliana with 6 samples.

Results

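The 58 genes described here carry the main steps of auxin biology in Arabidopsis (*Arabidopsis thaliana*), and they were picked by gene family and identifier from 24292 genes in the count table. The rule uses no measured value, although the set was drawn up with earlier results of these data known. They comprise 28 *Aux/IAA* genes, 15 *ARF* genes, 5 *TIR1/AFB* genes, 4 *PIN* genes, 4 *YUC* genes, and the pair *TAA1* and *TAR2*. All 58 had a row in the table and 54 had enough counts to be tested. *IAA20*, *IAA31*, *IAA33* and *IAA34* did not, and their counts are given with the *Aux/IAA* genes.

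The study examined how VAL1 and VAL2, B3-domain transcriptional repressors that bind RY elements and recruit Polycomb silencing, act in the shoot apex before flowering. RNA was sequenced from dissected shoot apices (0.5 g per sample) of 6-wk-old plants grown under short days (SD, 8 h light and 16 h dark) at 22 °C, moved from plates to soil at 7 days. The *val1* samples carried the *val1-2* allele (a SALK T-DNA insertion line), the *val2* samples carried *val2-1* (a SAIL T-DNA insertion line), and WT was Col-0, the background of both mutants. Each genotype had 2 libraries, so each mutant was represented by a single allele. The study describes them as biological replicates, and the p-values measure the spread between them.

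Auxin is made mainly from tryptophan, first by the aminotransferases TAA1 and TAR2 and then by the YUC flavin monooxygenases, which perform the rate-limiting step. PIN proteins export it from cells and set the direction of its flow, and local maxima in the meristem flank mark where leaves and flowers start. In the nucleus auxin joins a TIR1/AFB F-box protein to an Aux/IAA protein, the Aux/IAA protein is degraded, and the ARF transcription factors it held in check are released. Many *Aux/IAA* genes are themselves early auxin targets, which makes their transcripts both a readout of the response and a brake on it.

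The mutated genes were examined first as a check of the labels. *VAL1* had 12.5 and 15.7 CPM (counts scaled by library size with TMM factors, the unit of every library value below unless stated) in *val1*, 32.7 and 39.0 in *val2*, and 40.3 and 55.4 in WT. Its log2 fold change in *val1* against WT was −1.76 ± 0.17 (SE; adjusted p = 5.2e-05 in edgeR's quasi-likelihood test, Benjamini-Hochberg adjusted over all 21140 genes tested, as is every adjusted p below). *VAL2* had 150 and 164 CPM in the libraries labelled *val2*, 36.1 and 39.1 in *val1*, and 39.9 and 40.9 in WT, so that it was higher in the libraries labelled *val2* (log2 fold change 1.96 ± 0.08, adjusted p = 6.1e-06). A transcript count over the whole gene does not show whether an insertion allele makes a working protein, and the directions given for *val2* are those of the libraries labelled *val2*.

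The libraries held between 22635808 and 33474422 counts. Of the shoot meristem markers, *STM* had 65.4 and 64.8 CPM in *val1*, 70.7 and 66 in *val2*, and 58.3 and 58 in WT, *CLV1* and *KNAT1* were also present, *CLV3* was near 0 and *WUS* was not analysed here. Photosynthetic leaf markers were abundant in every library, and 7 of 9 were higher and 0 lower in *val1* than in WT, 0 higher and 6 lower in *val2* than in WT, and 9 of 9 higher in *val1* than in *val2* (summed 15704 and 14906 CPM per kb of exon in *val1*, 12050 and 11214 in *val2*, 14506 and 13756 in WT). The 6 touch and wound genes were all lower in *val1* than in WT, with *TCH3* at −2.37 and *CML38* at −2 on the log2 scale, and 1 of 6 was lower in *val2* (summed 1558 and 1574 CPM per kb in *val1*, 3221 and 3315 in *val2*, 3711 and 3843 in WT). Of 6 vascular markers, 4 were lower and 1 higher in *val1* than in WT. Of all genes tested, 23.6% were higher and 22.1% lower in *val1* than in WT, 8.69% and 10.0% in *val2* than in WT, and 17.7% and 18.0% in *val1* than in *val2*. The part of leaf tissue, handling and vascular tissue in the results below was not tested. These are bulk apices, in which fewer cells of a type and less RNA per cell cannot be told apart.

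Sequences printed here are those on which the subfamilies divide. They were read from the TAIR10.1 genome with its RefSeq annotation, 5′ to 3′ on the strand of the gene. Canonical Aux/IAA proteins carry a degron, the short peptide (Gly-Trp-Pro-Pro at its core) by which TIR1/AFB receptors recognise them. Codons for these residues, in any synonymous spelling, were present in all 22 canonical *Aux/IAA* genes and in 0 of the 6 genes set down as noncanonical (*IAA20*, *IAA30*, *IAA31*, *IAA32*, *IAA33* and *IAA34*). The 36 bases around them, with the 4 degron codons in capitals, are shown for the 6 *Aux/IAA* genes that differed at least 2-fold in some comparison.
*IAA2*, chr3:8181384-8181419: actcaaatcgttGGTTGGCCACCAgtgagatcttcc
*IAA18*, chr1:19306228-19306263: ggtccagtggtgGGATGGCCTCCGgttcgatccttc
*IAA4*, chr5:17550737-17550772: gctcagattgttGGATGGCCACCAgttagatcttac
*IAA17*, chr1:1136935-1136970: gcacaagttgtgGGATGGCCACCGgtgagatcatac
*IAA19*, chr3:5264304-5264339: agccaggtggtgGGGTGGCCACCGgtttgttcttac
*IAA28*, chr5:9033809-9033844: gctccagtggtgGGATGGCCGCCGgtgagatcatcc

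A second kind of sequence divides the *ARF* and receptor genes, the sites of the microRNAs miR160, miR167 and miR393. The mature sequences are given with the seed, bases 2 to 8, in capitals, and no pair of the 3 shared a seed.
miR160a-5p, chr2:16340282-16340302: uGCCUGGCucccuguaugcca
miR167a-5p, chr3:8108090-8108110: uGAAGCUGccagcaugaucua
miR393a-5p, chr2:16652111-16652132: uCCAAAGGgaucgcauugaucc

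A match with at most 5 bases outside Watson-Crick pairs (A with U, G with C) was taken as a site. A G:U pair was counted as outside. Every site lay in a coding exon, 3 *ARF* genes had one for miR160, 2 had one for miR167, and 4 of the 5 receptor genes had one for miR393. Capitals mark the bases that form Watson-Crick pairs with the microRNA, so a base in a G:U pair is in lower case.
*ARF17*, miR160: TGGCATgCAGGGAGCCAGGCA
*ARF10*, miR160: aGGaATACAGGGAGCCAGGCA
*ARF16*, miR160: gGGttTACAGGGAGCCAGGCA
*ARF8*, miR167: TAGATCAgGCTGGCAGCTTgt
*ARF6*, miR167: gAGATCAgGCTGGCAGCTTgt
*AFB2* and *AFB3*, miR393: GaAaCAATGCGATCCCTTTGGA
*TIR1*, miR393: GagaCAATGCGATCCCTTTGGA
*AFB1*, miR393: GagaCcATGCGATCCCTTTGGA
*AFB5* had 8 bases outside Watson-Crick pairs at its best position, and was the receptor gene without a site. By this count *ARF10* and *ARF16* had 2 and 3 bases outside Watson-Crick pairs, against 1 in *ARF17*, which lies in a G:U pair.

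In the *val1* apex, most auxin synthesis, export and receptor genes were higher than in WT, and the *Aux/IAA* and *ARF* families had members that were higher and members that were lower. Of the 54 genes tested, 23 were higher and 9 lower in *val1* than in WT at an adjusted p below 0.05, and 22 did not pass. Over all genes tested, 23.6% were higher and 22.1% lower, so the auxin genes had a share of 42.6% higher and 16.7% lower. At 2-fold or more (called DEGs below) 8 were upregulated and 2 downregulated, where 5.89% and 9.81% of all genes were. The median log2 fold change of the auxin genes was 0.39, and that of all genes tested was 0.04. Scaling by library size alone moved the all-gene median by 0.21 to 0.25. Then 33 auxin genes were higher and 5 lower, beside 8614 and 3354 of all 21140 genes tested. On log2(TPM + 1) the all-gene median moved by 0.25 to 0.28, with 30 higher and 6 lower of 47 tested. Of all 14831 genes tested there, 7018 were higher and 3439 lower. No auxin gene that passed changed direction under either.

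The apices labelled *val2* differed from WT at fewer auxin genes. There 5 were higher and 9 lower than in WT, beside 8.69% and 10.0% of all genes, and the median was 0.05, against 0.00 over all genes. No auxin gene was a DEG in edgeR in either direction (0.918% and 2.27% of all genes were). At an unadjusted p below 0.05 edgeR gave 14 higher and 14 lower, 0 of them at 2-fold or more. DESeq2 gave 8 higher and 15 lower at that p, and 5 higher and 11 lower at an adjusted p below 0.05. Again 0 were at 2-fold or more. Library size alone gave 10 higher and 8 lower, beside 2807 and 1602 of all 21140 genes tested. These counts depended on single libraries. Fewer auxin genes were higher when any 1 of the WT and *val2* libraries was left out, and fewer were lower without WT replicate 2 or either *val2* library. The counts over all genes fell in these fits as well, so the drop was not particular to the auxin genes. *IAA7*, which was lower in *val2*, passed in each of the 16 alternatives.

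Set against each other, *val1* had 21 auxin genes higher and 9 lower than *val2*, where 17.7% and 18.0% of all genes were. Of these, 6 were DEGs higher and 3 DEGs lower in *val1*, beside 5.17% and 6.94% of all genes. The median was 0.27, and 0.01 over all genes. Without *val2* replicate 2 the count higher was smaller, and so was that over all genes. The comparisons with WT share the 2 WT libraries, so the values of a gene in *val1* and in *val2* are given side by side.

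**Figure D1:**
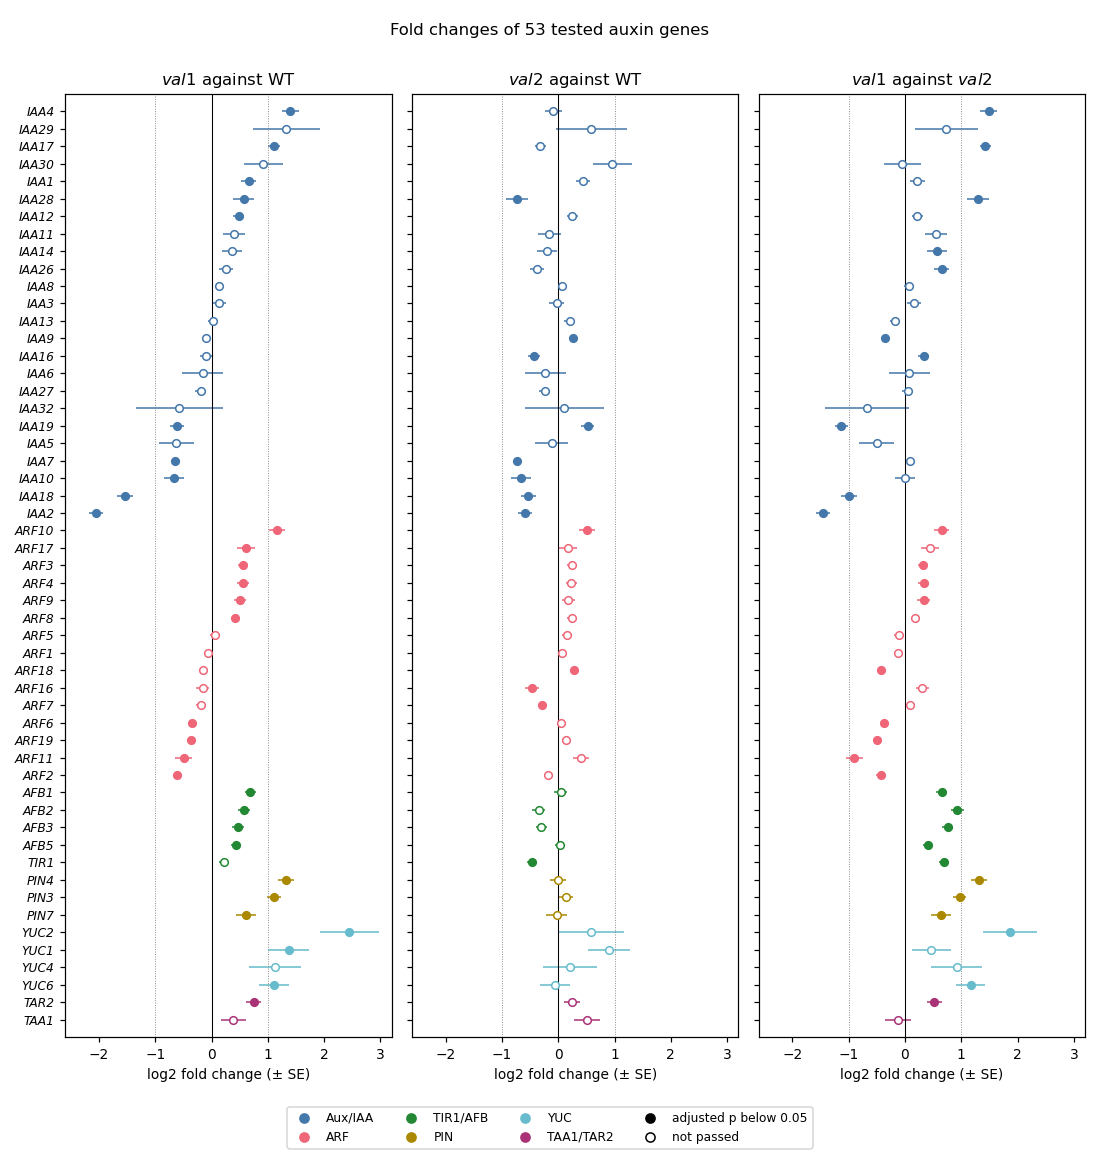
Log2 fold change (horizontal axis) of 53 tested auxin genes, by subfamily down the vertical axis, with one panel for each pair of genotypes (*val1* over WT, *val2* over WT, *val1* over *val2*). Filled points passed an adjusted p of 0.05, bars are SE and dotted lines mark 2-fold. The 3 *PIN* genes drawn and the 4 *YUC* genes lie to the right of 0 in the panel of *val1* over WT, where *IAA2* lies farthest left at −2.05.

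Of the 6 auxin synthesis genes, which had 5 to 309 counts per library, *YUC1*, *YUC2*, *YUC6* and *TAR2* rose in *val1*, and *YUC4* and *TAA1* did not pass. Of the 4 *YUC* genes, 3 were upregulated in *val1* and 0 were downregulated, with a median log2 fold change of 1.25, and in *val2* none passed in edgeR (1 at an unadjusted p below 0.05) or in DESeq2. *YUC2* (AT4G13260, chr4:7721487-7724070) had 1.38 and 1.82 CPM in *val1*, 0.338 and 0.545 in *val2*, and 0.437 and 0.162 in WT. Both *val1* libraries lay above the other 4, and *val2* and WT overlapped. *YUC2* rose by 2.45 ± 0.52 in *val1* (adjusted p = 0.0045), the largest log2 rise among the 54 genes. The size was set by few counts, since it was 3.28 without WT replicate 1 and 1.86 without WT replicate 2, and 0.96 on log2(TPM + 1) without a filter.

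*YUC6* (AT5G25620, chr5:8934941-8938768) had 2.96 and 2.66 CPM in *val1*, 1.26 and 1.23 in *val2*, and 1.23 and 1.36 in WT. The *val1* libraries stood above the other 4, which lay together. It rose by 1.11 ± 0.26 in *val1* (adjusted p = 0.0077), against −0.06 in *val2* (adjusted p = 0.91). *YUC1* (AT4G32540, chr4:15700829-15703000), which with *YUC4* is active in shoot organ primordia, had 1.86 and 2.56 CPM in *val1*, 1.38 and 1.84 in *val2*, and 0.596 and 1.10 in WT. All mutant libraries were above both WT libraries, and the *val1* libraries were the highest. It rose by 1.37 ± 0.37 in *val1* (adjusted p = 0.015), a call that was lost without WT replicate 1 or *val1* replicate 2, and its value in *val2* was 0.90 (adjusted p = 0.13).

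*YUC4* (AT5G11320) was the most abundant *YUC* gene per length in *val1* and in WT. It had 3.48 and 3.67 CPM in *val1*, 2.28 and 1.5 in *val2*, and 0.715 and 2.49 in WT, so that the WT libraries were far apart and spanned both *val2* libraries. Its value in *val1* was 1.13 ± 0.46 (adjusted p = 0.076), and 2.31 with an adjusted p of 0.0033 without WT replicate 2. In the direct comparison of the mutants, *YUC2* (1.86 ± 0.48, adjusted p = 0.016) and *YUC6* (1.17 ± 0.26, adjusted p = 0.0076) were higher in *val1*. The *YUC2* call was lost without *val1* replicate 2 or either *val2* library, and the *YUC6* call without *val2* replicate 2 (adjusted p = 0.051).

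*TAR2* (AT4G24670) had 10.9 and 10.0 CPM in *val1*, 6.95 and 7.63 in *val2*, and 5.92 and 6.43 in WT. The 3 genotypes did not overlap, and *val1* was highest. *TAR2* rose by 0.75 ± 0.13 in *val1* (adjusted p = 0.0018), and its value in *val2* was 0.24 (adjusted p = 0.27). *TAA1* (AT1G70560) had 3.24 and 3.70 CPM in *val1*, 3.78 and 3.81 in *val2*, and 2.18 and 3.1 in WT, and passed in neither mutant (0.39 with adjusted p = 0.21 in *val1*, 0.51 with adjusted p = 0.16 in *val2*). Thus *TAR2* and not *TAA1* passed in *val1*, although whether the pair differed from each other was not tested.

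*PIN3*, *PIN4* and *PIN7* rose in *val1*, with a median of 1.11, and 0 of these 3 passed in *val2* in edgeR, at an unadjusted p below 0.05 or in DESeq2. *PIN3* (AT1G70940, chr1:26742940-26746469), an exporter that acts in tropic bending and in moving auxin through the stem, had 118 and 131 CPM in *val1*, 71.3 and 56.1 in *val2*, and 60.6 and 54.9 in WT. The *val1* libraries stood clear of the other 4, among which *val2* and WT overlapped. *PIN3* rose by 1.11 ± 0.12 in *val1* (adjusted p = 8.3e-05), against 0.14 in *val2* (adjusted p = 0.44), and was 0.97 ± 0.12 higher in *val1* than in *val2* (adjusted p = 2.6e-04).

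*PIN4* (AT2G01420, chr2:180033-183764) had 55.8 and 76.3 CPM in *val1*, 27.5 and 25.6 in *val2*, and 28.4 and 24.6 in WT. The *val1* libraries differed between themselves and both were above all others, which lay together. It rose by 1.32 ± 0.14 in *val1* (adjusted p = 9.7e-05) and by the same amount against *val2* (adjusted p = 1.4e-04), with 0.00 in *val2* against WT. *PIN7* (AT1G23080), the closest relative of *PIN3* and *PIN4* in sequence, had 47.4 and 61.3 CPM in *val1*, 40.4 and 29.5 in *val2*, and 39.8 and 31.5 in WT. It rose by 0.61 ± 0.18 in *val1* (adjusted p = 0.02), a call that was lost without WT replicate 2 or *val1* replicate 2.

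Of the 5 receptor genes, *AFB1*, *AFB2*, *AFB3* and *AFB5* rose in *val1*, each by less than 2-fold, and *TIR1* did not pass. The family's median was 0.47. *AFB1* (AT4G03190) had 64.3 and 58.5 CPM in *val1*, 43.1 and 35.0 in *val2*, and 38.0 and 38.0 in WT. It was higher in both *val1* libraries than in any other, and WT lay between the 2 *val2* libraries. *AFB1* rose by 0.69 ± 0.10 (adjusted p = 7.2e-04), *AFB2* by 0.58 (adjusted p = 0.0025), *AFB3* by 0.47 (adjusted p = 0.005) and *AFB5*, which prefers a different class of synthetic auxin, by 0.43 (adjusted p = 0.0033).

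*TIR1* (AT3G62980), the founding receptor, had 102 and 105 CPM in *val1*, 61.8 and 66.6 in *val2*, and 82.9 and 95.4 in WT. The 3 genotypes did not overlap and WT lay in the middle. Its value in *val1* against WT was 0.22 ± 0.09 (adjusted p = 0.073), and it passed with library size alone (0.43, adjusted p = 0.002), on log2(TPM + 1) (0.39, adjusted p = 0.0044) and without WT replicate 2 (0.32, adjusted p = 0.041), and not in DESeq2 (adjusted p = 0.16). *TIR1* fell by 0.47 ± 0.09 in *val2* (adjusted p = 0.0076), a call that was lost without WT replicate 2 or *val2* replicate 1. Between the mutants all 5 receptor genes were higher in *val1*, with a median of 0.69, led by *AFB2* at 0.93 ± 0.11 (adjusted p = 2.5e-04). Without *val2* replicate 2 *AFB5* did not pass. The 4 receptor genes with a miR393 site had a median of 0.52 in *val1* and −0.32 in *val2*, and *AFB5*, without one, had 0.43 and 0.03. The summed leaf markers were likewise highest in *val1* and lowest in *val2*, and their part in the receptor values was not tested.

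**Figure D2:**
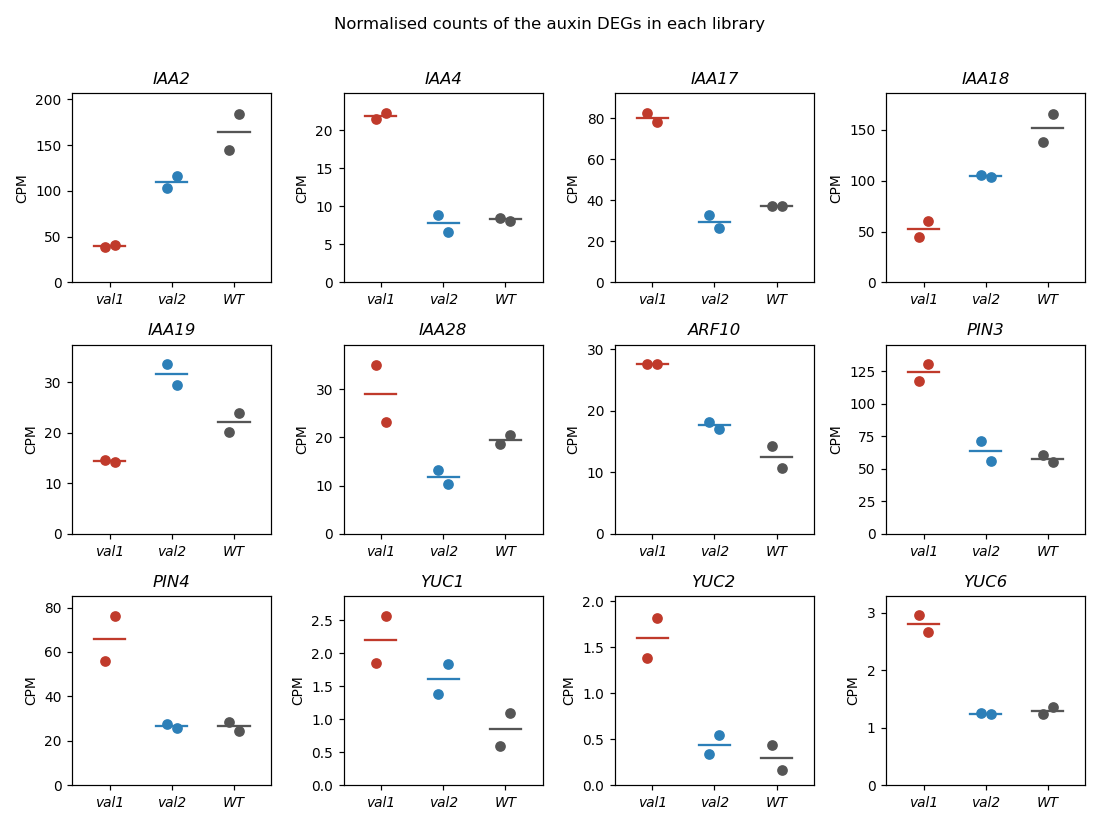
CPM (vertical axis) in each library of the 12 auxin genes that were DEGs in at least 1 comparison, one panel per gene, with *val1*, *val2* and WT along the horizontal axis. Points are libraries and lines are the mean of 2. *IAA2* and *IAA18* are lowest in *val1* (38.3 and 41.1 CPM, and 44.3 and 60.1 CPM), while *PIN3*, *PIN4*, *IAA4* and *IAA17* are highest there.

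Among the 24 *Aux/IAA* genes tested, 5 rose and 5 fell in *val1* against WT (20.8% each way, near the 23.6% and 22.1% of all genes), and the median was 0.08. The largest change was in *IAA2* (AT3G23030, chr3:8180646-8182095), an auxin-induced gene widely used as a reporter of the response. It had 38.3 and 41.1 CPM in *val1*, 103 and 116 in *val2*, and 145 and 184 in WT. The genotypes were separate, with *val1* lowest and *val2* between it and WT. *IAA2* fell by 2.05 ± 0.12 in *val1* (adjusted p = 3.1e-06), or 4.14-fold, by 0.59 ± 0.12 in *val2* (adjusted p = 0.0094), and it was 1.46 ± 0.12 lower in *val1* than in *val2* (adjusted p = 2.9e-05). The *val2* call was lost without WT replicate 2 or *val2* replicate 1.

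*IAA18* (AT1G51950, chr1:19305081-19307518), which is known from gain-of-function alleles that alter embryo and lateral root patterning, had 44.3 and 60.1 CPM in *val1*, 106 and 104 in *val2*, and 138 and 166 in WT. It had the same order as *IAA2*, with no overlap. It fell by 1.54 ± 0.14 in *val1* (adjusted p = 3.7e-05) and by 0.53 ± 0.14 in *val2* (adjusted p = 0.029). The second call was lost without WT replicate 2 or either *val2* library, and on log2(TPM + 1) without a filter. The touch and wound genes had the same order of genotypes in their summed level, and their part in the *IAA2* and *IAA18* values was not tested.

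*IAA4* and *IAA17* moved the other way. *IAA4* (AT5G43700, chr5:17550179-17551715) had 21.4 and 22.2 CPM in *val1*, 8.89 and 6.64 in *val2*, and 8.50 and 8.05 in WT. *IAA17* (AT1G04250, chr1:1136078-1138663), known as *AXR3*, had 82.5 and 78.0 in *val1*, 32.9 and 26.4 in *val2*, and 37.3 and 37.0 in WT. For both genes the *val1* libraries were at least 2 times the other 4. *IAA4* rose by 1.40 ± 0.15 (adjusted p = 7.8e-05) and *IAA17* by 1.11 ± 0.10 (adjusted p = 3.8e-05) in *val1*, and in *val2* they had −0.09 (adjusted p = 0.73) and −0.32 (adjusted p = 0.064).

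In *IAA19* and *IAA28* the mutants moved to opposite sides of WT. *IAA19* (AT3G15540, chr3:5264001-5265695), the auxin-induced *MSG2* gene of hypocotyl bending, had 14.7 and 14.2 CPM in *val1*, 33.7 and 29.5 in *val2*, and 20.1 and 24.0 in WT. It fell by 0.61 ± 0.12 in *val1* (adjusted p = 0.0029) and rose by 0.52 ± 0.12 in *val2* (adjusted p = 0.016, lost without WT replicate 1 or *val2* replicate 1). The genotypes did not overlap and *val1* was 1.13 ± 0.12 below *val2* (adjusted p = 1.2e-04).

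*IAA28* (AT5G25890, chr5:9033204-9035140), which restrains lateral root founding, had 35.1 and 23.1 CPM in *val1*, 13.3 and 10.3 in *val2*, and 18.7 and 20.4 in WT. Again no genotypes overlapped, in the reverse order. It was 1.30 ± 0.20 higher in *val1* than in *val2* (adjusted p = 9.8e-04). Against WT it rose by 0.57 ± 0.19 in *val1* (adjusted p = 0.037). That call was lost without either WT library or *val1* replicate 1, and without a filter on low counts. In *val2* it fell by 0.73 ± 0.20 (adjusted p = 0.034). This second call was lost without any 1 of the WT and *val2* libraries, and on log2(TPM + 1) without a filter.

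*IAA7* (AT3G23050), known as *AXR2*, had 45.5 and 50.8 CPM in *val1*, 46.6 and 44.3 in *val2*, and 75.5 and 74.8 in WT. Both mutants lay below WT and overlapped each other. *IAA7* fell by 0.64 ± 0.08 in *val1* (adjusted p = 2.0e-04) and by 0.73 ± 0.08 in *val2* (adjusted p = 7.7e-04). Of the rest, *IAA1* rose by 0.66 (adjusted p = 0.0035) and *IAA12*, the *BODENLOS* gene of embryo axis formation, by 0.48 (adjusted p = 0.0037) in *val1*. *IAA10* fell by 0.66 in *val1* (adjusted p = 0.014), a call that was lost with library size alone and without WT replicate 2 or *val1* replicate 2. In *val2* it fell by 0.66 as well (adjusted p = 0.031), a call lost in DESeq2 and without any 1 of the WT and *val2* libraries. *IAA9* (AT5G65670), the most abundant *Aux/IAA* gene per length in WT, had 245 and 248 CPM in *val1*, 328 and 301 in *val2*, and 268 and 256 in WT. *IAA9* rose in *val2* by 0.27 (adjusted p = 0.039) and had −0.09 in *val1* (adjusted p = 0.38). Its *val2* call was lost without any 1 of the WT and *val2* libraries, and with DESeq2 size factors.

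*IAA16*, *IAA26* and *IAA14* passed in comparisons that involve *val2* and did not pass in *val1* against WT. *IAA16* had 141 and 143 CPM in *val1*, 121 and 105 in *val2*, and 141 and 163 in WT, and fell in *val2* by 0.43 ± 0.10 (adjusted p = 0.018, lost without WT replicate 2 or *val2* replicate 2). *IAA26* had 92.1 and 91.9 CPM in *val1*, 66.3 and 51.2 in *val2*, and 69.5 and 83.5 in WT. It was 0.65 ± 0.13 higher in *val1* than in *val2* (adjusted p = 0.0041), and had 0.26 in *val1* against WT (adjusted p = 0.12). *IAA14*, the *SOLITARY-ROOT* gene, was 0.57 ± 0.18 higher in *val1* than in *val2* (adjusted p = 0.038). The call was lost without *val1* replicate 2 or either *val2* library, and without a filter on low counts.

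A further 8 canonical members passed in no comparison. *IAA8*, the gene with the highest level per length in *val1*, had 258 and 248 CPM in *val1*, 253 and 228 in *val2*, and 229 and 231 in WT, with log2 fold changes of 0.14 in *val1* and 0.07 in *val2*. *IAA3* (*SHY2*), *IAA13*, *IAA27* and *IAA11* lay between −0.24 and 0.40 against WT in either mutant. *IAA5*, *IAA6* and *IAA29* had at most 1.94 CPM in any library, and *IAA29* had 0.689 and 0.649 CPM in *val1*, 0.554 and 0.238 in *val2*, and 0.159 and 0.356 in WT (1.33 ± 0.60 in *val1*, adjusted p = 0.1).

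Of the 6 noncanonical *Aux/IAA* genes, which lack the degron codons, 2 were tested and neither passed in edgeR in any comparison (0 in DESeq2, and 1 higher at an unadjusted p below 0.05 in edgeR in each mutant against WT). *IAA30* (AT3G62100) was the most abundant, with 2.84 and 1.78 CPM in *val1*, 2.92 and 1.80 in *val2*, and 1.23 and 1.20 in WT. The mutants were above WT and overlapped, at 0.92 in *val1* (adjusted p = 0.06) and 0.96 in *val2* (adjusted p = 0.088). *IAA31* had 17 and 4 counts in *val1* and 0 in all *val2* and WT libraries, and *IAA33* had 5 and 4 counts in *val1* and 0 in the others. Against the 3 counts per library that a count of 0 allows, the observed level in *val1* was 4.41 times that of WT for *IAA31* and 1.78 times for *IAA33*. No test was run. Counting error was allowed for in WT and not in *val1*, so these ratios are not lower bounds. Without *val1* replicate 1 the ratio for *IAA31* was 1.38, so it rests on that library. *IAA20* had 10 and 2 counts in *val1*, 9 and 4 in *val2*, and 0 and 6 in WT, and *IAA34* had 5 and 9, 8 and 2, and 6 and 4 in the same genotypes.

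In all, 3 pairs of *Aux/IAA* genes lie within 20000 bases of each other on opposite strands, with their starts facing. *IAA3* and *IAA17* are 6388 bases apart on chromosome 1, *IAA2* and *IAA7* are 12510 apart on chromosome 3, and *IAA14* and *IAA1* are 10732 apart on chromosome 4. The neighbours had unlike values in *val1* against WT. *IAA17* had 1.11 and *IAA3* 0.13, *IAA2* had −2.05 and *IAA7* −0.64, and *IAA1* had 0.66 and *IAA14* 0.36. Whether neighbours differed from each other was not tested.

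The *ARF* genes moved in both directions. In *val1* 6 rose and 4 fell of 15, and the median was −0.06. Scaling by library size alone turned it to 0.16, where the all-gene median was 0.25. *ARF10* (AT2G28350, chr2:12113889-12116957), a repressor ARF under miR160, was the only DEG of the family in any comparison. It had 27.6 and 27.5 CPM in *val1*, 18.1 and 17.1 in *val2*, and 14.2 and 10.7 in WT. The 3 genotypes were separate, with WT lowest. It rose by 1.16 ± 0.14 in *val1* (adjusted p = 1.6e-04) and by 0.51 ± 0.14 in *val2* (adjusted p = 0.033, lost without WT replicate 2 or either *val2* library).

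Values of the other 2 genes with a miR160 site follow, and whether they differed from *ARF10* was not tested. *ARF17* rose in *val1* by 0.62 (adjusted p = 0.012, lost without WT replicate 2 or *val1* replicate 1) and had 0.17 in *val2* (adjusted p = 0.52). *ARF16* (AT4G30080) had 20.1 and 19.7 CPM in *val1*, 14.7 and 17.5 in *val2*, and 21.3 and 23.4 in WT, so WT was highest. It had −0.16 in *val1* (adjusted p = 0.27) and fell by 0.47 ± 0.12 in *val2* (adjusted p = 0.023). The *val2* call was lost without WT replicate 2 or *val2* replicate 1, and on log2(TPM + 1) without a filter. Of the pair with a miR167 site, *ARF8* rose by 0.42 (adjusted p = 0.0033) and *ARF6* fell by 0.34 (adjusted p = 0.0048) in *val1*.

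*ARF2* (AT5G62000), a repressor ARF whose loss enlarges organs and delays senescence, was the most abundant *ARF* gene in every genotype. It had 344 and 366 CPM in *val1*, 449 and 507 in *val2*, and 526 and 558 in WT, with no overlap. It fell by 0.61 ± 0.08 in *val1* (adjusted p = 3.5e-04) and had −0.18 in *val2* (adjusted p = 0.16). *ARF3* and *ARF4*, genes of organ polarity, each rose by 0.56 in *val1* (adjusted p = 7.3e-04 and 0.0017), and *ARF9* rose by 0.51 (adjusted p = 0.0057). Among activators, *ARF19* fell by 0.36 (adjusted p = 0.0036), and *ARF5*, the *MONOPTEROS* gene of organ initiation, had 0.06 (adjusted p = 0.64). *ARF11*, a repressor, fell by 0.49 (adjusted p = 0.025, lost without WT replicate 2 or *val1* replicate 2). The falls of *ARF6*, *ARF11* and *ARF19* did not pass with library size alone, on log2(TPM + 1) with or without a filter, or on log2(TPM + 0.1).

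By class of *ARF*, the 5 activators had 1 higher and 2 lower in *val1* (median −0.19), the 7 class B repressors 3 higher and 2 lower (median −0.06), and the 3 class C repressors 2 higher and 0 lower (median 0.62). In *val2* the activators had 0 higher in edgeR and in DESeq2 (1 at an unadjusted p below 0.05 in edgeR) and 1 lower, class B 1 higher (*ARF18*, 0.28, adjusted p = 0.029) and 0 lower, and class C 1 higher and 1 lower. The activator lower in *val2* was *ARF7* (−0.28, adjusted p = 0.043), which lost its call without any 1 of the WT and *val2* libraries and with library size alone. The *ARF7* call was also lost without a filter on low counts, on log2(TPM + 1) with or without a filter, and on log2(TPM + 0.1). The *ARF18* call was lost without any 1 of the WT and *val2* libraries. *ARF1* and *ARF5* passed in no comparison. Between the mutants, *ARF11* was 0.90 ± 0.15 lower in *val1* than in *val2* (adjusted p = 0.0015), with 7.13 and 6.26 CPM in *val1*, 11.2 and 13.8 in *val2*, and 8.94 and 9.83 in WT.

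The subfamilies are set side by side here without a test between them. In *val1* against WT, the counts higher and lower were 1 and 0 of 2 for *TAA1* and *TAR2*, 3 and 0 of 4 for *YUC*, 3 and 0 of 3 for *PIN3*, *PIN4* and *PIN7*, 4 and 0 of 5 for *TIR1/AFB*, 5 and 5 of 24 for *Aux/IAA*, and 6 and 4 of 15 for *ARF*. Of all genes, 23.6% were higher and 22.1% lower. No member of the first 4 groups was lower at an unadjusted p below 0.05 in edgeR or passed as lower in DESeq2. The median log2 fold changes were 0.57, 1.25, 1.11, 0.47, 0.08 and −0.06 in that order, against 0.04 for all genes. Library size alone gave 0.79, 1.46, 1.33, 0.68, 0.29 and 0.16, against 0.25 for all genes. In *val2* against WT the medians were 0.38, 0.40, 0.00, −0.30, −0.14 and 0.17. The smaller subfamilies hold 2 to 5 genes.

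Summed levels per length show what these changes came to in each library. *PIN3*, *PIN4* and *PIN7* together had 74.7 and 89.9 CPM per kb of exon in *val1*, 46.7 and 37.2 in *val2*, and 42.9 and 37.1 in WT, so *val1* was 2.06 times WT. *YUC* genes summed to 4.77 and 5.42 in *val1*, 2.69 and 2.72 in *val2*, and 1.46 and 2.55 in WT, 2.54 times WT in *val1*. In both sums *val1* stood above all other libraries.

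The receptors summed to 131 and 133 CPM per kb in *val1*, 84.8 and 84.2 in *val2*, and 94.7 and 101 in WT. *TAA1* and *TAR2* summed to 6.79 and 6.73 in *val1*, 5.45 and 5.76 in *val2*, and 3.97 and 4.79 in WT. Receptor sums were highest in *val1* and lowest in *val2*, and the synthesis pair was lowest in WT. The *Aux/IAA* genes summed to 720 and 717 in *val1*, 771 and 702 in *val2*, and 797 and 854 in WT, and the *ARF* genes to 358 and 361, 392 and 414, and 396 and 397 in the same genotypes. With TMM scaling the *Aux/IAA* and *ARF* sums were lower in *val1* than in WT, while the other 4 sums were higher. No test was run on sums. Sums with library size alone were not taken, so whether the *Aux/IAA* and *ARF* sums would stay lower was not tested. Library size alone raised the median log2 fold changes of these families in *val1* against WT from 0.08 and −0.06 to 0.29 and 0.16.

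**Figure D3:**
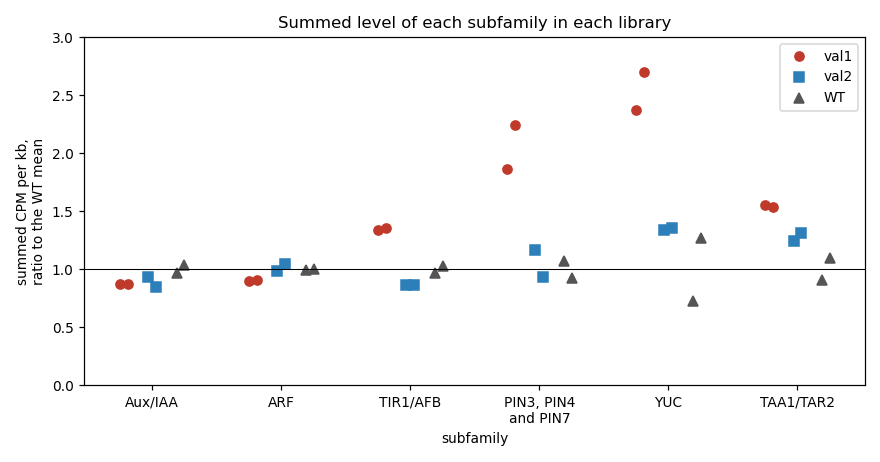
Summed CPM per kb of exon of each subfamily in each library, with TMM scaling, as a ratio to the WT mean (vertical axis). The subfamilies lie along the horizontal axis, and sums with library size alone were not taken. Red circles are *val1*, blue squares *val2* and grey triangles WT libraries, and the line marks a ratio of 1. The *val1* points of the *PIN* genes drawn (*PIN3*, *PIN4* and *PIN7*) and of *YUC* lie highest (mean ratios 2.06 and 2.54) and *Aux/IAA* and *ARF* points of *val1* lie below 1 (0.871 and 0.906).

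**Figure D4:**
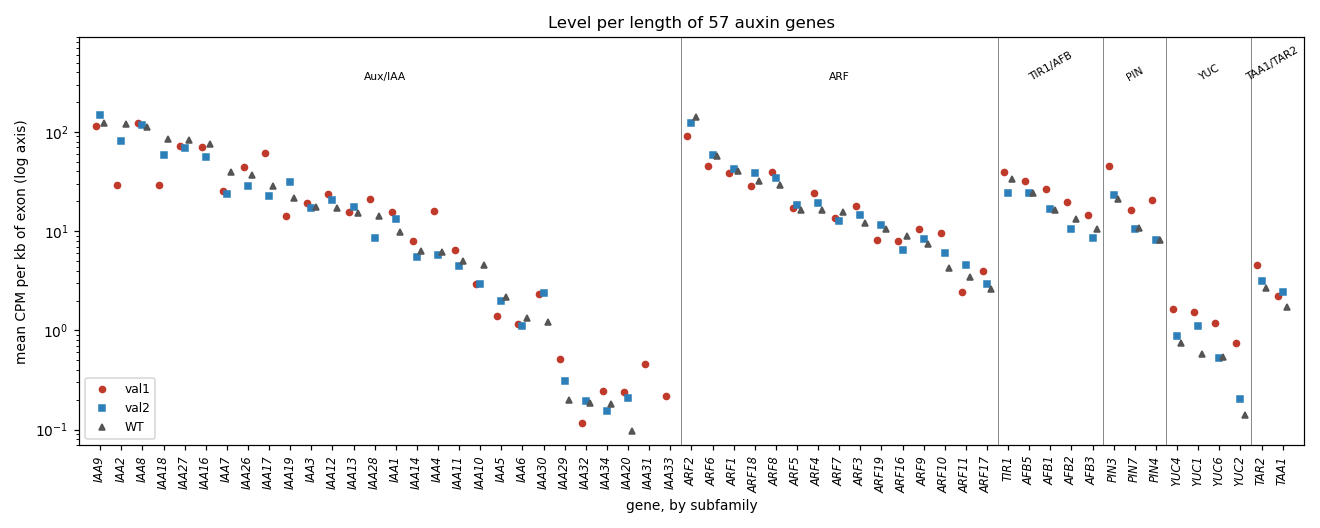
Mean CPM per kb of exon (log axis) of 57 auxin genes, grouped by subfamily along the horizontal axis, in *val1* (red circles), *val2* (blue squares) and WT (grey triangles). *IAA31* and *IAA33*, at 0 in *val2* and WT, have no point there. *ARF2* (140 in WT) and *IAA9* (122 in WT) are the highest in WT, and the *YUC* genes lie lowest among the other subfamilies.

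Levels per length ranked the genes within each family. In WT *ARF2* had 140 CPM per kb, *IAA9* 122, *IAA2* 121, *IAA8* 112 and *IAA18* 85.2. In *val1* *IAA2* had 29.2 and *IAA18* 29.3, and *IAA8* came first among *Aux/IAA* genes at 123 with 17.1% of the family's sum. In *val2* *IAA9* came first at 147. The top 4 *Aux/IAA* genes held 52.9% of the sum in *val1*, 56.2% in *val2* and 53.4% in WT.

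*ARF2* held 25.5% of the *ARF* sum in *val1*, 30.7% in *val2* and 35.3% in WT. *TIR1* was the most abundant receptor gene in *val1* (39.1 CPM per kb, 29.5% of the sum) and in WT (33.7, 34.4%), and in *val2* *AFB5* (24.4, 28.9%) and *TIR1* (24.3) lay next to each other. *TAR2* held 66.8%, 56.2% and 61.0% of the pair's sum in the same genotypes. *YUC1* was first in *val2* at 1.11 CPM per kb, and *YUC4* was first in *val1* at 1.65 and in WT at 0.741. These shares are of 2 libraries a genotype and were not tested.

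Promoters were searched for the element bound by VAL proteins and for those bound by ARFs, in the 300 bases from 250 before to 50 after the gene start, on both strands. The RY element TGCATG was in 5 of 58 (8.62%), against 9.72% of 27443 protein-coding genes and 8.45% of the tested ones. The study found RY motifs bound by the B3 domain of VAL1 in introns of *BOP1* and *BOP2*. Gene bodies past the first 50 bases were not searched here. The auxin response element TGTCTC was in 15 of 58 (25.9%), of which 11 were among the 28 *Aux/IAA* genes (39.3%), and in 14.2% of all. TGTCGG was in 8 of 58 (13.8%), against 5.12%. *IAA2*, *IAA18*, *IAA4* and *IAA17* held none of the 3, which says only that these letters are not in this window. *IAA19* held TGTCTC 3 times, shown here in capitals, in the 100 bases from 200 to 101 before its start.
*IAA19*, chr3:5263801-5263900: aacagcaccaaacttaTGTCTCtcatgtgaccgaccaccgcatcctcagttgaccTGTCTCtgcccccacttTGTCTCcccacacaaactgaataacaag
The 12 tested genes with TGTCTC had 6 higher and 1 lower in *val1* (median 0.50), and the 42 without it had 17 higher and 8 lower (median 0.37). A match is a description of sequence and not of binding.

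Other auxin genes, taken from lists of the pathway, placed the 58 in context. The list counts below stand beside 23.6% higher and 22.1% lower of all genes in *val1* against WT. The all-gene shares were 8.69% and 10.0% in *val2* against WT, and 17.7% and 18.0% in *val1* against *val2*. Amidohydrolases release free auxin from its amino acid conjugates, and 4 of 8 tested genes of conjugate hydrolysis and oxidation fell in *val1*, with 0 higher. *ILL6* had 30 and 42.9 CPM in *val1*, 173 and 217 in *val2*, and 262 and 325 in WT, a fall of 3.01 ± 0.19 in *val1* (adjusted p = 4.1e-06). *IAR3* had 59.7 and 70.3 in *val1*, 183 and 215 in *val2*, and 287 and 332 in WT, a fall of 2.25 ± 0.12 (adjusted p = 2.2e-06). Both enzymes also cleave jasmonate conjugates. The genotypes were separate in each and ordered as in *IAA2*, and as the summed touch and wound genes were, whose part was not tested.

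Of 7 *GH3* genes, which conjugate auxin to amino acids, 2 were higher (28.6%) and 3 lower (42.9%) in *val1* than in WT, beside 23.6% and 22.1% of all genes. *GH3.3* was 1.39 ± 0.17 lower in *val1* than in *val2* (adjusted p = 3.2e-04). Of the 4 *AUX1/LAX* importers 2 rose in *val1*, *AUX1* by 0.58 and *LAX2* by 0.70. Of 10 further transport genes 5 rose and 0 fell. *PID*, a kinase that phosphorylates PIN proteins, had 48.1 and 47.3 CPM in *val1*, 23.5 and 20.4 in *val2*, and 17.3 and 16.8 in WT. The genotypes were separate, and it rose by 1.49 ± 0.09 in *val1* (adjusted p = 4.5e-06) and by 0.37 ± 0.10 in *val2* (adjusted p = 0.029, lost without either WT library or *val2* replicate 1). Its relative *WAG1* rose by 1.60 ± 0.36 in *val1* (adjusted p = 0.0061), and *WAG2* was 1.91 ± 0.57 higher in *val1* than in *val2* (adjusted p = 0.029), a call lost in DESeq2 (adjusted p = 0.059) and without *val1* replicate 1 or *val2* replicate 2. *PIN5*, a carrier located at the endoplasmic reticulum, rose in *val2* by 1.18 ± 0.31 (adjusted p = 0.03). The call was lost in DESeq2 (adjusted p = 0.061) and without either WT library or *val2* replicate 1.

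Among 5 *TOPLESS* corepressors, which Aux/IAA proteins recruit, 2 fell in *val1* and 0 rose. *TPR3* had 35.7 and 47.9 CPM in *val1*, 83.0 and 101 in *val2*, and 93.0 and 102 in WT, a fall of 1.22 ± 0.14 (adjusted p = 1.5e-04). Of 3 tested small RNA loci *TAS3A* rose by 1.09 ± 0.19 (adjusted p = 0.0015) and *TAS3B* by 1.80 ± 0.35 (adjusted p = 0.0029) in *val1*. These are precursor reads in polyA-enriched libraries and not small RNA levels. Of 52 *SAUR* genes tested, early auxin-induced genes of cell expansion, 18 were higher (34.6%) and 13 lower (25%) in *val1* than in WT (median 0.42). Of all genes, 23.6% and 22.1% were. In *val2* against WT 1 was higher (1.92%) and 6 lower (11.5%), beside 8.69% and 10.0% of all genes. In *val1* against *val2* 17 were higher (32.7%) and 6 lower (11.5%), beside 17.7% and 18.0%. Some *SAUR* genes are near-identical copies, among which reads may be split. Of 3 tested genes of other auxin synthesis steps 1 was higher and 0 lower in *val1*. Each count of 0 against WT in *val1* in these lists was also 0 at an unadjusted p below 0.05 in edgeR and in DESeq2.

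In the annotation 15 of the 58 genes overlap another gene. The partners of *IAA9*, *IAA10* and *IAA13* were not analysed here. Those of the other 12 had counts (*IAA3*, *IAA5*, *IAA11*, *IAA27*, *IAA32*, *IAA34*, *ARF1*, *ARF5*, *ARF7*, *ARF19*, *AFB1* and *AFB3*). The strand setting used in counting is not given in the sources used here, so reads of a partner could be included. *ARF7* overlaps a gene of up to 14274 counts in 1 library, and *IAA5*, *IAA32* and *IAA34* are low enough for a partner's reads to matter. None of the 15 was a DEG.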

How the data were processed

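RNA-seq libraries (Illumina TruSeq stranded mRNA kit, polyA enrichment) came from 2 samples each of *val1*, *val2* and WT shoot apices. The submitters' processing notes name cutadapt, STAR, StringTie, DESeq2 and TAIR10, without versions. The authors deposited a table of estimated counts per gene, derived by StringTie from coverage and written as whole numbers without normalization, and a table of StringTie TPM. Estimated counts carry more uncertainty for overlapping genes than for isolated ones. The TPM table holds 51 of the 58 genes. A total of 77 rows without a gene identifier (0.00191 to 0.00266% of the counts) were left out, and 0 columns of sample values were unused.

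Counts were filtered with filterByExpr by genotype and TMM scaled, and all 6 libraries were fitted together by genotype in edgeR 4.0.16 (limma 3.58.1, R 4.3.3) with the quasi-likelihood test and Benjamini-Hochberg adjustment. There were 3 residual degrees of freedom, and the biological coefficient of variation was 10.7%. A DEG passed an adjusted p of 0.05 and was at least 2-fold changed. Alternatives were DESeq2 1.42.0, its size factors, library size alone, other filters, log2(TPM + 1) and log2(TPM + 0.1) in limma, only the 2 genotypes compared, a replicate block, and leaving out each library. Levels per kb use exon length. The scripts were tested on simulated data. Gene members and lists were chosen with earlier results of these data known. Named in full were every DEG and, in each subfamily, the largest rise, largest fall and highest level in WT. The values of 1 member of the set are not reported here; it is part of the counts over the whole set.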

Additional observations from a re-analysis of the deposited data

How the results depend on the processing

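The DEG threshold of 2-fold gave 8 higher and 2 lower (*val1* against WT), 0 and 0 (*val2* against WT), and 6 and 3 (*val1* against *val2*). Scaling by library size alone gave 5 lower in *val1* against WT, where 3354 of all genes were lower. In *val2* against WT it gave 10 higher, log2(TPM + 1) 9 and log2(TPM + 0.1) 8, beside 2807, 2303 and 2290 of all genes. There log2(TPM + 1) without a filter gave 5 lower, beside 1391 of all genes. With a replicate block the counts higher and lower were 25 and 9, 7 and 12, and 22 and 9 in the 3 comparisons, against 23 and 9, 5 and 9, and 21 and 9. *TIR1* in *val1* against WT passed with the replicate block (0.22, adjusted p = 0.036). Deviations of equally numbered replicates correlated by 0.0309 to 0.0406 and no replicate number was taken to pair the samples. Leaving out 1 library of a genotype compared lowered the counts over all genes in each comparison, and the counts that follow are of the auxin genes. Leaving out each library gave 21 to 24 higher and 7 to 9 lower in *val1* against WT, 1 to 6 higher and 1 to 9 lower in *val2* against WT, and 13 to 24 higher and 9 lower in *val1* against *val2*. Of the single results of named genes, 1064 kept their direction and side of the threshold, 32 passed only under an alternative, 44 lost their call and 0 were reversed, and the cause was not tested.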
